A study of Mus musculus with 4 samples.

Results

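The 7 genes described here encode the 4 TEAD transcription factors (Tead1, Tead2, Tead3 and Tead4), their coactivators YAP (Yap1) and TAZ (Wwtr1), and the cofactor VGLL4 (Vgll4). They are 7 of 21887 protein-coding genes in the gene table, and they were chosen as a family. All H3K27ac peaks within 10 kb of each gene were taken. These were 28 of 13130 peaks in the list of the Hdac3-deleted culture (Cre) and 41 of 12873 peaks in the list of the control culture (GFP). Of the 7 genes, 5 had a peak in at least 1 list.

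The cells were primary chondrocytes of C57Bl/6 mice, grown outside the animal as dense micromass cultures. The culture labelled hdac3-knockout had received Cre-recombinase adenovirus, and the culture labelled wild-type had received GFP control adenovirus. The labels do not state the age of the mice, how many animals went into a culture, or any allele of the GFP culture. H3K27ac, an acetylated form of histone H3 found at active promoters and enhancers, was immunoprecipitated and sequenced in 1 library per culture, so no difference below has a replicate check or a test. The 2 input libraries were not analysed here. The number of fragments at a peak's summit, recovered from the deposited values, ran from 7 to 63 in the Cre list and from 7 to 58 in the GFP list. Its median was 12 in both. The most frequent expected level at a summit, taken as each library's base level, was 1.01 fragments for the Cre library and 0.95 for the GFP library, and single peaks had higher ones. The base levels were close, and total read counts were not used here. All 5 chondrocyte marker genes examined had peaks (65 in the Cre and 82 in the GFP list). None of 3 endothelial markers had any, and of 4 macrophage markers Cd68 alone had peaks (3 in the GFP list, none in the Cre list). Of 4 fibroblast markers 2 had peaks, Col3a1 with 6 and 4 and Col1a2 with 0 and 5 in the Cre and GFP lists. Hdac3 had no peak within 10 kb in either list, and acetylation does not measure the deletion.

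TEAD proteins bind DNA at sites with the core GGAATG but activate transcription weakly without a partner. YAP and TAZ are partners that activate, and they are held in the cytoplasm when the Hippo kinases phosphorylate them. VGLL4 binds the same TEAD surface and competes with YAP, so it acts as a brake on TEAD output. In cartilage, YAP and TAZ are known as regulators of chondrocyte proliferation and maturation that respond to matrix stiffness and mechanical load.

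The starts of 4 of these genes are shown because their promoters hold the TEAD core while differing in acetylation. Each sequence is the 250 bases before an annotated start, from the RefSeq promoter table of GRCm38.p6 (the mm10 build), 5′ to 3′ on the strand of the gene, which is the minus strand in all 4. Capitals mark GGAATG or its reverse complement CATTCC.
Wwtr1, chr3:57575911-57576160: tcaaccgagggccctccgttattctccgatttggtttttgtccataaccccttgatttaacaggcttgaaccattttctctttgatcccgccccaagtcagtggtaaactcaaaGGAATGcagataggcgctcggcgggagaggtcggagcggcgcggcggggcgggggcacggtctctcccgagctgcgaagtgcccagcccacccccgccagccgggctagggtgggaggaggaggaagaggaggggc
Yap1, chr9:8004597-8004846: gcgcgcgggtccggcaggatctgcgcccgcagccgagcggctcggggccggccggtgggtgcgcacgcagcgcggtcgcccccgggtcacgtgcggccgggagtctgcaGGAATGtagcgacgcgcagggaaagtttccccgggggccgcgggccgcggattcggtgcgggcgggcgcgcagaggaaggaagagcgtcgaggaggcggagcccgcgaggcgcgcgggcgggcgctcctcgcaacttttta
Vgll4, chr6:114969204-114969453: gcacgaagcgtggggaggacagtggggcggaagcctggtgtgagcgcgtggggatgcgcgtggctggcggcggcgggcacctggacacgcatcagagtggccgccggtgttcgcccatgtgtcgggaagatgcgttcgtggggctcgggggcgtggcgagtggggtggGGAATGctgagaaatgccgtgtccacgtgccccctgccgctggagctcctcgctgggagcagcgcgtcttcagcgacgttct
Tead3, the middle of 3 listed starts, chr17:28350601-28350850: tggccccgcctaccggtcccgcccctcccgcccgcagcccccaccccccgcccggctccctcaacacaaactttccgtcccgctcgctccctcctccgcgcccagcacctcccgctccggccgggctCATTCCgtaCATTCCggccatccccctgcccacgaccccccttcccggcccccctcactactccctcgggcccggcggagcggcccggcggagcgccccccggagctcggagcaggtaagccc

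The table held promoters of 5 of the 7 genes. Tead1 and Tead4 had no entry. Over windows of 250 bases before to 50 after a start, 4 of the 5 genes (6 of 8 promoters, some of which overlap) had the core on at least 1 strand. Of all 32851 promoters in the table, 14.7% had it. Wwtr1 had GGAATG beginning 136 bases before the start shown, Yap1 141 bases before and Vgll4 82 bases before. The Tead3 start shown had CATTCC beginning 123 and 114 bases before it, and GGAATG beginning 2 bases after the start base. Such matches of 6 bases are a description of the letters and no record of binding. In the Wwtr1 promoter a Cre peak covered the farthest 123 of the 250 bases, and the core lay inside that peak. No peak of either list touched the other sequences shown.

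Most called peaks of this family lay at the cofactor and the coactivators, and the genes of the factors had few (see the plot of peak number and covered length by gene). Of the 4 TEAD genes 2 had a peak, beside 32.4% of all protein-coding genes. Vgll4 held 15 of the 28 Cre peaks and 31 of the 41 GFP peaks. Of the family's covered length, its peaks made up 62.6% with the Cre list and 81.3% with the GFP list. Yap1 and Wwtr1 had 12 Cre peaks (2422 bp) and 8 GFP peaks (1610 bp) between them. The 4 TEAD genes had 1 Cre peak of 155 bp and 2 GFP peaks of 400 bp in all. In both lists the order of covered length was Vgll4, Wwtr1, Yap1, then the TEAD genes.

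**Figure D1:**
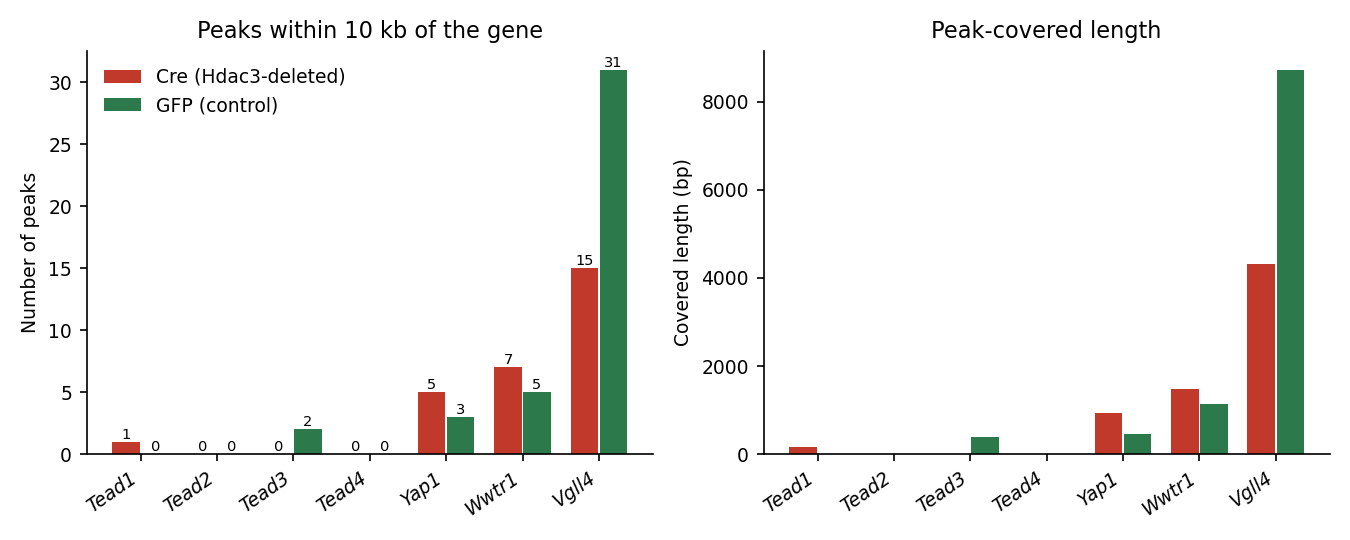
Number of H3K27ac peaks (left) and peak-covered length in bp (right) within 10 kb of each gene, with 1 library per culture and no error bars. Vgll4 stands highest in both panels with 15 Cre and 31 GFP peaks, while Tead2 and Tead4 have none.

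Per kb of gene and flanks, Vgll4 had 33.3 bp of Cre peak and 67.4 bp of GFP peak. Wwtr1 had 10.5 and 8.14 bp per kb, and Yap1 had 10.2 and 5.05 bp per kb. Tead3, a shorter gene, had no Cre peak and 10.2 bp of GFP peak per kb, from 2 peaks. The order of covered length in the GFP list therefore did not hold per kb. Tead1 had 0.626 bp of Cre peak per kb and no GFP peak. Over the 7081 protein-coding genes with a peak in either list, the medians were 5.72 bp (Cre) and 5.84 bp (GFP) per kb. Vgll4 lay above both of these medians. Over the 180 genes with at least 20 peaks in both lists together, the medians were 39.2 bp (Cre) and 38.7 bp (GFP) per kb. Vgll4 lay below the first of these and above the second. By covered length it ranked 81 of 21887 genes by Cre peaks and 17 by GFP peaks.

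Vgll4 (chr6:114860621-114970007, minus strand) had more acetylated sequence in the control culture. Its 15 Cre peaks covered 4312 bp and its 31 GFP peaks covered 8719 bp, 2.02 times as much in the GFP list. The Cre share of its peak number was 32.6%, with an exact Clopper-Pearson 95% interval of 19.5 to 48.0, and the Cre share of covered length was 33.1%. This interval is for counting error only and treats peaks as independent. Neighbouring peaks of 1 library are not independent, so it can be too narrow even for that. Of 180 genes with at least 20 peaks in both lists together, 7.22% had at least a 2-fold greater covered length with GFP peaks and 9.44% with Cre peaks. Of these 180 genes, 11 (Vgll4 included) had a Cre share no higher than that of Vgll4, and the median share of the 180 was 48.0%. GFP cover was the greater for 110 of the 180 and Cre cover for 70. Neighbouring genes can share peaks, so the 180 are not all independent. The threshold of 20 peaks was chosen after the values of Vgll4 were seen. The 5 chondrocyte markers leaned the same way, with 17176 bp of Cre and 25143 bp of GFP peaks and a greater GFP cover in 4 of 5. The part of this in the Vgll4 result was not tested.

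All peaks of Vgll4 lay inside the gene, far from its listed start. The nearest Cre peak was 47553 bp from the start and the nearest GFP peak 47084 bp, and no peak touched the window of 1 kb around the start. Stitched within 12.5 kb, the peaks formed 2 groups. The group farther from the start (chr6:114873307-114893655, 20349 bp, 75.5 to 95.9 kb downstream) had 12 Cre peaks covering 3262 bp and 26 GFP peaks covering 6386 bp. Cre peaks filled 16.0% of its length and GFP peaks 31.4%. The nearer group (chr6:114908193-114922119, 13927 bp, 47.1 to 61.0 kb downstream) had 3 Cre peaks covering 1050 bp and 5 GFP peaks covering 2333 bp. The Cre shares of covered length were 33.8% and 31.0%, so both groups leaned to the GFP library to a like extent. Exons and further transcript starts inside the gene were not examined here.

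**Figure D2:**
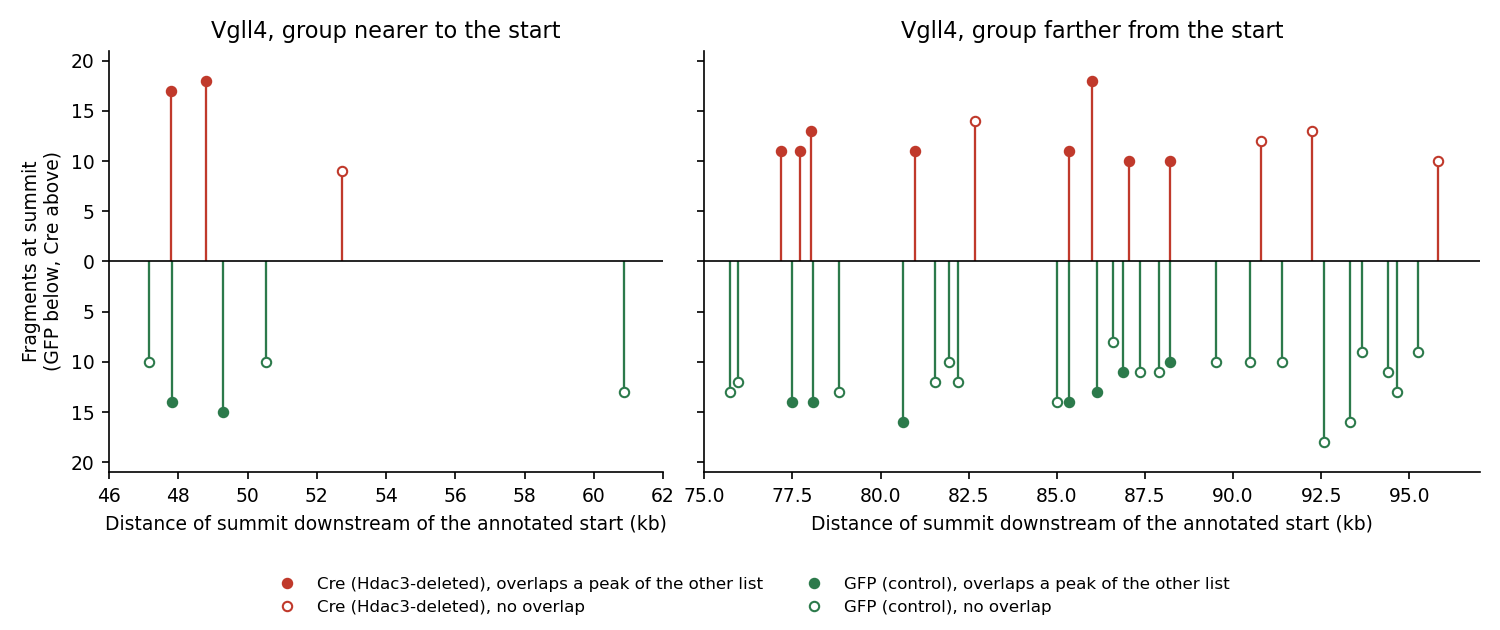
Fragments at the summit of each Vgll4 peak, Cre above and GFP below the line, against the distance of the summit from the annotated start in kb. Filled points overlap a peak of the other list; the GFP side holds 31 peaks and the Cre side 15, and the highest summit reaches 18 fragments on both sides.

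The highest summits of Vgll4 were of the same height in both libraries. The Cre maximum was 18 fragments, reached in both groups, and the GFP maximum was 18, reached in the farther group. The median summit had 11 fragments among Cre peaks and 12 among GFP peaks. GFP peaks were the more numerous at every height: 1 Cre and 3 GFP peaks had 7 to 9 fragments, 8 and 14 had 10 to 12, 3 and 10 had 13 to 14, and 3 and 4 had 15 or more. The tallest GFP summit, 92.6 kb downstream of the start (chr6:114876361-114876761), overlapped no Cre peak, although a Cre peak of 13 fragments lay within 1 kb of it. The tallest Cre summit of the farther group, 86.0 kb downstream (chr6:114882941-114883303), overlapped a GFP peak of 13 fragments.

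Most Cre peaks of Vgll4 lay at or beside a peak of the control culture. Of the 15 Cre peaks, 10 overlapped a GFP peak and 14 had one within 1 kb. Of the 31 GFP peaks, 9 overlapped a Cre peak and 24 had one within 1 kb. Over the whole lists, 40.7% of Cre and 41.4% of GFP peaks overlapped the other list, and 64.8% and 67.4% had a peak of it within 1 kb. The whole-list shares are not matched for peak density, and GFP peaks filled 31.4% of the farther group. Nearness to a GFP peak is therefore not read as a trait of Vgll4. The unequal numbers of 15 and 31 peaks also enter the overlap counts. The 1833 bp common to both lists were 42.5% of the Cre and 21.02% of the GFP covered length. At the 10 overlapping pairs the Cre summit was higher in 3, the GFP summit in 6 and both were equal in 1. Over all 5779 overlapping pairs of the lists the Cre summit was higher in 2696, the GFP summit in 2455 and both were equal in 628. The 10 pairs are not all separate sites. The GFP peak chr6:114891466-114891805 entered more than 1 of them, once by 1 shared bp. The Cre share of the 2 summits' fragments ran from 40.7% (95% interval 22.4 to 61.2) to 58.1% (39.1 to 75.5). All 10 intervals took in the 51.5% that the base levels of the libraries alone would give. A difference in height at these shared sites was therefore not detectable at this depth. Merging peaks of a list within 500 bp left 12 Cre peaks (4912 bp) and 16 GFP peaks (11442 bp), Cre shares of 42.9% by number and 30.0% by length. These lengths include the gaps between joined peaks.

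Wwtr1 (chr3:57455644-57575910, minus strand), the TAZ gene, had 7 Cre peaks covering 1478 bp and 5 GFP peaks covering 1142 bp. Of these, 4 Cre peaks overlapped 4 GFP peaks, and all 5 GFP peaks had a Cre peak within 1 kb. The pair nearest to the start, 1.49 to 1.64 kb downstream, had 12 fragments in both libraries (Cre chr3:57574202-57574371, GFP chr3:57574128-57574437). Pairs near 27.1 and 33.5 kb downstream had 10 Cre and 11 GFP fragments and 10 in both. The pair farthest from the start, near 105 kb downstream, had 17 Cre and 9 GFP fragments, a Cre share of 65.4% with an interval of 44.3 to 82.8. That interval took in 51.5%. The Cre list alone had a peak just upstream of the start (chr3:57576038-57576230), with its summit 191 bp before the start, 10 fragments and a deposited fold enrichment of 4.30. It also alone had a peak of 9 fragments 75.7 kb downstream.

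Yap1 (chr9:7931999-8004638, minus strand), the YAP gene, had 5 Cre peaks covering 944 bp and 3 GFP peaks covering 468 bp. Peaks of both lists lay at 3 places along the gene, near the start, about 25 kb downstream and about 57 kb downstream. Near the start 1 pair overlapped (Cre chr9:8003216-8003362, GFP chr9:8003252-8003396), with 10 Cre and 14 GFP fragments and summits 27 bp apart. The Cre list had 2 more peaks there with 9 fragments each. One of them (chr9:8004929-8005075) had its summit 388 bp upstream of the start, with a fold of 4.98. At the other places the peaks of the lists did not overlap but lay within 1 kb of each other, with 10 Cre and 8 GFP fragments at the nearer and 12 and 11 at the farther. Within 1 kb, 9 of the 12 Cre peaks and all 8 GFP peaks of Yap1 and Wwtr1 had a peak of the other list, whereas 5 of 12 and 5 of 8 overlapped one. The whole-list shares are those given with Vgll4, and with so few peaks nothing particular to these genes is read from the counts.

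**Figure D3:**
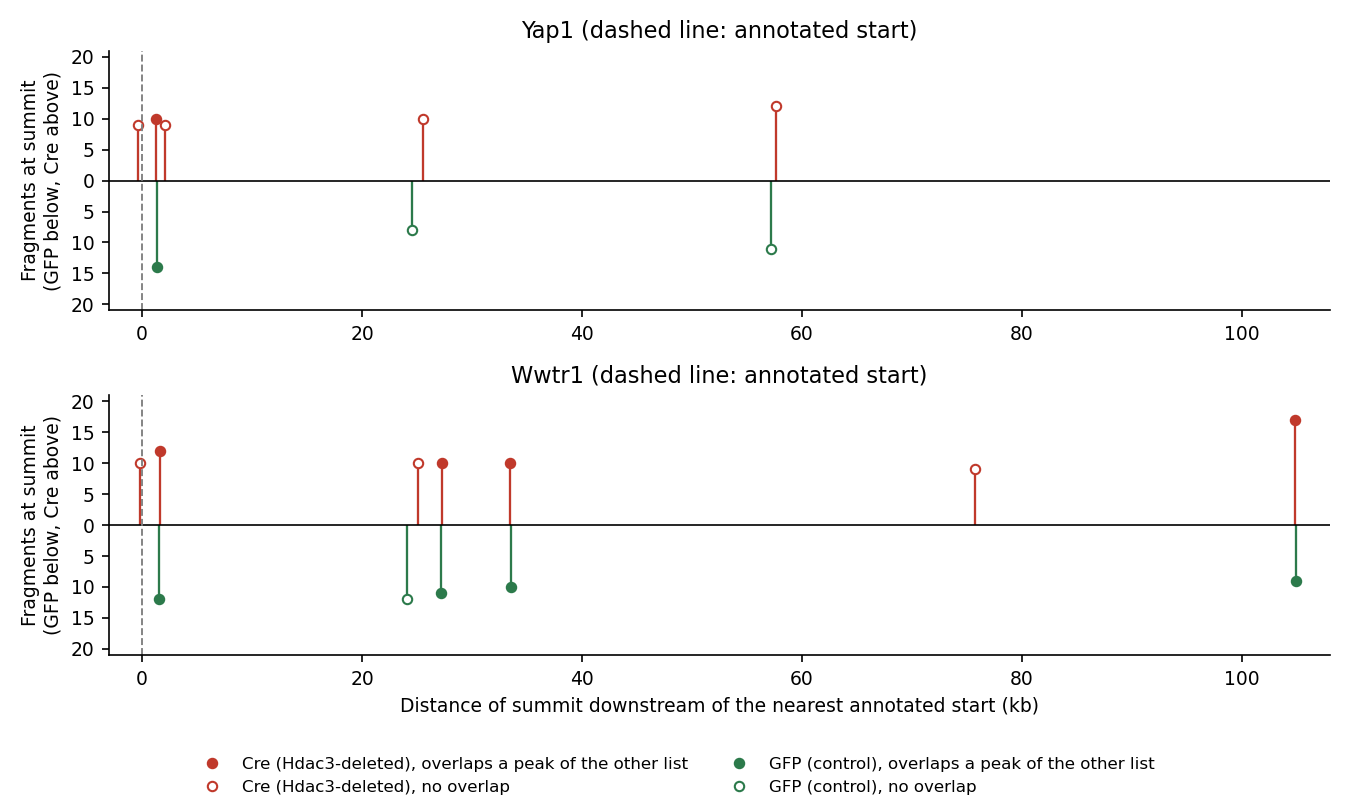
Fragments at the summit of each Yap1 (top) and Wwtr1 (bottom) peak, Cre above and GFP below the line, against the distance of the summit from the nearest annotated start in kb. Of the 8 GFP peaks all have a Cre peak within 1 kb, and the peaks just left of the dashed start line are in the Cre list alone.

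The peaks at the starts of Yap1 and Wwtr1 were weak calls. Within 1 kb of a start, 2 of the 7 genes had a Cre peak without a GFP peak, no gene had a GFP peak without a Cre peak, and no gene had peaks of both. The shares of all protein-coding genes were 4.32% for a Cre peak without a GFP peak, 4.90% for the reverse and 9.64% for both. Neither peak had a −log10 q-value of 5, and a window of 2.5 kb gave both genes a peak in both lists. The lean of Yap1 and Wwtr1 to the Cre library (66.9% and 56.4% of covered length) was lost at a −log10 q-value of 5. Among peaks that reached it, the Cre share was 0% for Yap1 (0 against 298 bp) and 25.9% for Wwtr1 (298 against 854 bp). This cutoff did not treat the lists alike, because the q-value also depends on the expected level. The Wwtr1 pair of 12 fragments in both lists had 4.51 (Cre, dropped) and 6.66 (GFP, kept), at expected levels of 1.56 and 0.957. The part of this in the loss was not tested.

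Among the DNA-binding factors, Tead1 (chr7:112679356-112906784) had 1 Cre peak and no GFP peak, and 6.31% of all protein-coding genes likewise had only Cre peaks. The Cre peak (chr7:112680512-112680666, 155 bp) had 11 fragments and a fold of 4.69, with its summit 1228 bp above the lower end of the gene. Tead3 (chr17:28331671-28350805, minus strand) had no peak inside the gene and no Cre peak within 10 kb, and 6.38% of all protein-coding genes likewise had only GFP peaks. Its 2 GFP peaks (chr17:28327155-28327327 and chr17:28329549-28329775) lay beyond the end of the gene, at 4448 and 2021 bp from it, with 8 and 15 fragments. The nearer of these lay inside the neighbouring gene Rpl10a, which encodes a ribosomal protein. Tead2 (chr7:45215792-45233468, plus strand) and Tead4 (chr6:128227143-128300813) had no peak in either list. A gene without a called peak can still carry the mark below the caller's threshold. Of all protein-coding genes, 32.4% had a peak within 10 kb in either list.

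Over the 5 genes with peaks, the balance had no common direction (see the plot of library balance over all genes). Yap1 and Tead1 had at least a 2-fold greater covered length with Cre peaks, and Vgll4 and Tead3 with GFP peaks. Over the 7081 genes with a peak, 28.5% were at least 2-fold greater with Cre and 29.0% with GFP peaks, a background that 2 of 5 genes on either side does not stand out from. The Tead3 call rested on its 2 peaks outside the gene and was lost with the gene body alone or where only peaks nearest to the gene itself were kept. For the whole family the Cre share of peak number was 40.6% (28.9 to 53.1) and that of covered length 39.1%. Without Vgll4 these were 56.5% and 56.2%, so the direction of the family total was that of Vgll4. Overlap with the other list was 53.6% (33.9 to 72.5) of the family's Cre peaks and 34.1% (20.1 to 50.6) of its GFP peaks, against 40.7% and 41.4% over the whole lists.

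**Figure D4:**
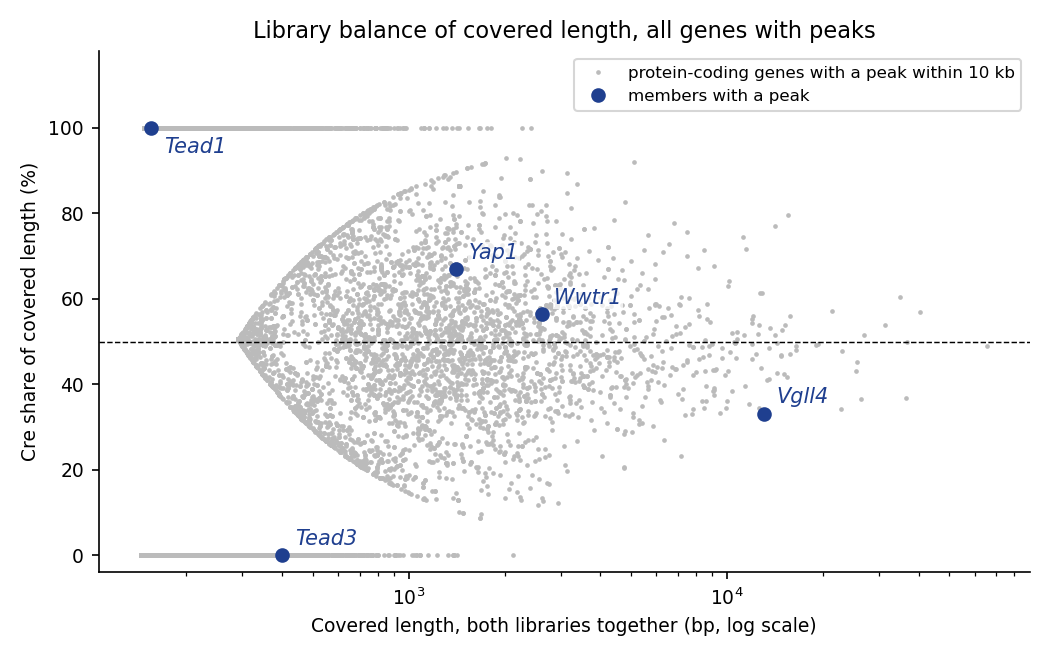
Cre share of peak-covered length in percent against the covered length of both libraries together in bp (log axis), for the 7081 protein-coding genes with a peak within 10 kb. Genes with little cover spread from 0 to 100%, and Vgll4 lies at 33.1% among the genes of greatest cover.

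The Hippo kinases, scaffolds and regulators upstream of YAP and TAZ showed no common lean. Of 21 genes 17 had peaks, beside 32.4% of all protein-coding genes, with 63 Cre peaks (16076 bp) and 55 GFP peaks (14395 bp). Cre cover was the greater for 8 genes and GFP cover for 9, and by at least 2-fold for 3 and 4, beside 28.5% and 29.0% of all genes with a peak. Their median Cre share was 49.4%, beside 49.6% over all genes with a peak. Stk4, encoding the kinase MST1, had 12 Cre peaks (5450 bp) and 9 GFP peaks (2674 bp). Amotl2, an angiomotin that binds YAP, had 12 and 11 peaks covering 2363 and 3397 bp. Map4k4, a kinase upstream of LATS, covered 1649 and 1611 bp, and Frmd6, a FERM-domain protein, 1257 and 629 bp. Lats1 and Lats2, named for their role, encode the kinases that phosphorylate YAP and TAZ. They had peaks at the start in both lists and covered 469 and 585 bp (Lats1) and 830 and 1326 bp (Lats2). Nf2, Sav1, Stk3 and Amot had no peak.

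Genes commonly listed as TEAD targets had 2-fold calls near the background in both directions, and more of them had greater cover with GFP peaks. Of 22 genes 15 had peaks, beside the 32.4% of all genes, with 53 Cre peaks (11033 bp) and 56 GFP peaks (15080 bp). Cre cover was the greater for 5 genes and GFP cover for 10, and by at least 2-fold for 4 and 5. Some of the 10 rested on 1 GFP peak of 144 bp. These 4 and 5 of 15 are near the 28.5% and 29.0% over all genes with a peak. The median Cre share of the 15 genes was 41.0%. Over all 7081 genes with a peak the median was 49.6%, with Cre cover the greater for 3476 genes and GFP cover for 3596. Amotl2, Lats2 and Ptpn14 stand in both lists of genes. Ccdc80, a secreted matrix protein gene, had no Cre peak and 6 GFP peaks covering 2131 bp. Tgfb2, a TGF-β ligand gene, had 2 and 6 peaks covering 405 and 1791 bp. Arhgef17 went the other way with 8 and 4 peaks covering 2026 and 669 bp. Myof, the myoferlin gene, covered 1048 and 1520 bp. The CCN matricellular genes, named after their values were seen, had opposite calls. Ccn1 had no Cre peak and 4 GFP peaks covering 1041 bp, and Ccn2 had 3 Cre peaks (453 bp in all) without any GFP peak. The other vestigial-like genes, Vgll1, Vgll2 and Vgll3, had no peak in either list.

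**Figure D5:**
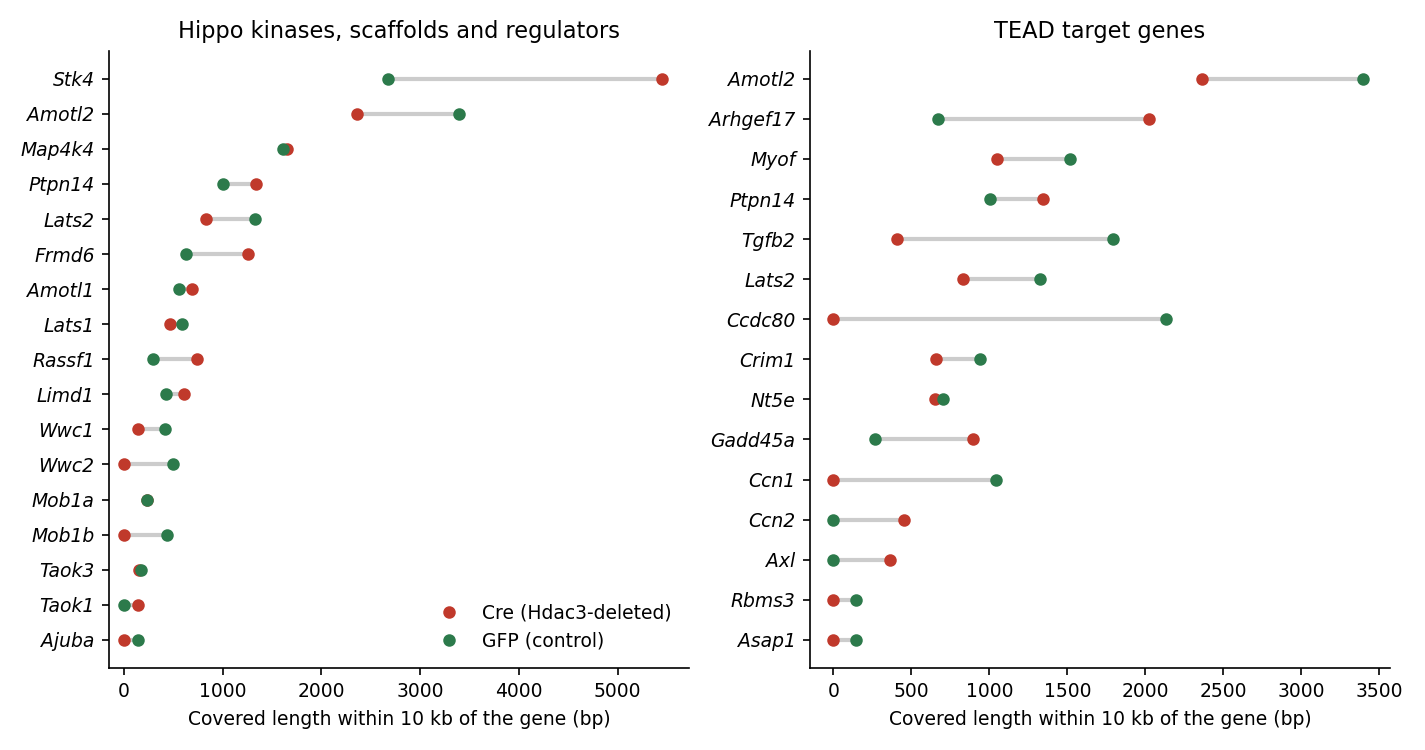
Peak-covered length in bp within 10 kb of each gene in the Cre and GFP libraries, for the 17 Hippo pathway genes (left) and the 15 TEAD target genes (right) that had a peak, with a line joining the values of a gene. Stk4 lies farthest to the Cre side on the left, and Ccdc80 and Tgfb2 lie to the GFP side on the right.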

How the data were processed

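H3K27ac peak lists of 1 Cre and 1 GFP library were used. Per the submitters' processing notes, the build was mm10 and the tools included SICER, Picard, BWA and bcl2fastq 1.8.4, with no roles given. The deposited lists have the name and column order of MACS2 output; its version, settings and control were not given in the sources used here. Every deposited row holds a position, a score, a fold enrichment (a ratio) and the −log10 p-value and −log10 q-value of the summit. The authors called each library separately, per the deposited lists, so covered length depends on each list's calling. Fold and score were not compared between lists. The −log10 q-value entered as a cutoff in the alternatives, and single values were set side by side to show its unequal effect. The fragment numbers solved from fold and −log10 p-value, as described next, were compared between lists.

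The fold and −log10 p-value were solved for the summit's fragment number with a Poisson upper tail, giving whole numbers for 100% of peaks within a tolerance of 0.001. This was tested on simulated data. Positions are 1-based. Genes and promoters came from RefSeq tables of GRCm38.p6. Where the promoter table gave no strand, both gene ends stood for the start. An overlap needed 1 shared bp. Shares carry exact Clopper-Pearson 95% intervals for counting error only, which treat the counted peaks or fragments as independent. Analyses used Python 3.11.15, pandas 2.3.3 and scipy 1.17.1. All 7 genes are named. Of each further list the 3 genes of greatest cover and the 3 of greatest difference were to be named, and exceptions are stated. The genes, lists and settings were chosen with earlier results of these data known. Alternatives covered flanks, significance, summit depth, merging, assignment, overlap and start window.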

Additional observations from a re-analysis of the deposited data

How the results depend on the processing

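With 1 library per culture, differences cannot be told apart from variation between cultures, and summits of 8 to 18 fragments leave a site's absence from a list uncertain. No paired analysis was possible because each group had 1 library. The 3 alternatives for flank and assignment left the Vgll4 peaks as they were and are no check of them. Under the other 3 its lean to the GFP list kept its direction, with Cre shares of covered length of 30.0% (peaks within 500 bp merged), 33.5% (−log10 q-value of at least 5) and 40.9% (summits of at least 15 fragments). The 40.9% rested on 3 Cre and 4 GFP peaks. The q-value cutoff did not treat the lists alike. In Vgll4 a Cre peak of 11 fragments missed it (4.93). GFP peaks (5.68) and other Cre peaks (5.41) of 11 fragments reached it. Merging counts the gaps between joined peaks as covered, which adds most to the list with more close peaks, so the 30.0% is no check. By merged peak number the lean weakened to 12 Cre and 16 GFP peaks (42.9%). With peaks merged, the family's peaks were nearly even, 25 Cre and 26 GFP (49.0%), at 35.8% of covered length. Without Vgll4, an alternative added after seeing the data, the family's share turned to 56.5% of peak number and 56.2% of covered length. Requiring a −log10 q-value of at least 5 turned Yap1 to 0% and Wwtr1 to 25.9%, and left 0 genes with a Cre peak at the start. Summits of equal height in the 2 lists can fall on opposite sides of this cutoff. Keeping only summits of 15 or more fragments left Wwtr1 at 100%, on 1 Cre peak. A start window of 2.5 kb gave 3 genes with a Cre peak (Tead1 added) and 2 with a GFP peak. Tead3 kept no peak with the gene body alone or with only its nearest peaks. Overlap with the other list fell to 21.4% of Cre and 14.6% of GFP peaks when 50% of both peaks had to be shared, and was 82.1% and 78.0% within 1 kb, where the whole lists gave 64.8% and 67.4%. These last changes follow from the stricter and looser definitions themselves.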

Other observations

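The TEAD core GGAATG or CATTCC was no more frequent in acetylated promoters of this dataset than in others. It was present in 12.4% of the 4803 promoters with a peak of either list within 1 kb of the start and in 15.05% of the 28048 promoters without one. Median GC content of these promoters was 61.0% and 51.3%, and its part in the difference was not tested. The 5 member genes with an entry had promoters of 61.3% to 75.3% GC.

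Among genes rich in peaks, more had greater cover with GFP than with Cre peaks, but 2-fold differences did not lean to GFP. Of 180 genes with at least 20 peaks in both lists together, GFP cover was the greater for 110 and Cre cover for 70. Cover was at least 2-fold greater with GFP peaks for 13 and with Cre peaks for 17. The median Cre share of the 180 was 48.0%. Neighbouring genes can share peaks, so the 180 are not all independent. The genes named here are some of the 11 (Vgll4 included) with a Cre share no higher than that of Vgll4. Among the genes with at least 20 peaks, Rbfox2, a splicing regulator gene, had the lowest Cre share of covered length, 23.3% (9 Cre and 29 GFP peaks). Thra, a thyroid hormone receptor gene, had 28.8% (7 and 14 peaks). Rarg, a retinoic acid receptor gene, had 31.7% (8 and 12 peaks). Serpinh1, the gene of a collagen chaperone, had 32.9% (10 and 15 peaks). These genes were named after their values were seen.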
